A study of Mus musculus with 7 samples.

Results

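The genes that write, erase and read DNA methylation were followed in hematopoietic stem cells (HSCs), the marrow cells from which every blood lineage is renewed, from mice with and without the aryl hydrocarbon receptor gene (Ahr). A gene was taken where the array's platform annotation named it alone on a row, and 8 of the 9 genes sought had such a row, 1 probe set each, out of 22180 genes with a row of their own. They were the methyltransferase genes Dnmt1, Dnmt3a and Dnmt3b, the maintenance cofactor gene Uhrf1, the dioxygenase genes Tet1, Tet2 and Tet3, and the reader gene Mbd2. The ninth, Tdg, shared both of its rows with pseudogenes. The study compared 3 arrays of Ahr knockout mice (Ahr-KO) with 4 arrays of mice carrying wild-type Ahr (WT). Both genotypes were on the C57BL/6J background and were sampled at 8 weeks of age. Lineage-positive marrow cells were depleted and SLAM-family surface markers were used to isolate the stem cells. The labels describe neither the knockout allele nor whether an array held 1 animal or a pool, so p-values reflect the spread among the 7 arrays alone, and that spread may be technical.

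DNA methylation places a methyl group on cytosine, mostly where a guanine follows, and dense methylation of a promoter usually goes with silence of its gene. Dnmt1, brought to newly copied DNA by Uhrf1, restores the pattern after replication, while Dnmt3a and Dnmt3b methylate sites anew. Tet enzymes oxidise the methyl group, the glycosylase Tdg removes the oxidised base, and Mbd2 binds methylated DNA and recruits a repressor complex. In blood, Dnmt3a and Tet2 are known for mutations found in clonal haematopoiesis and myeloid neoplasms, and Dnmt1 is known to be needed for stem cell self-renewal.

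AhR binds DNA with its partner Arnt at sites with the core GCGTG, so the bases before the members' transcription start sites were read for that core and, since replication-linked genes are often E2F targets, for TTCCCGC. Both strands were searched in the 250 bases before each start site in RefSeq (build GRCm38.p6), and the 2 motifs do not overlap in the windows shown. Of 13 such promoters, belonging to 8 of the 9 genes (Mbd2 not used here), 3 held the AhR core, or 23.1%, against 28.2% of 32851 promoters of the same length. Counted by gene, with any of its promoters, the share was 3 of 8 or 37.5%, against 30.9% of 27025 genes. Those 3 belonged to Dnmt1, Uhrf1 and Tdg. TTCCCGC stood in 1 of the 13, or 7.69%, against 3.82% of all. A few windows are shown because they carry most of these matches, with matches on either strand in capitals (CACGC is GCGTG read on the other strand), each ending at the base before the start site.
Uhrf1, chr17:56303087-56303336, plus strand, with TTCCCGC: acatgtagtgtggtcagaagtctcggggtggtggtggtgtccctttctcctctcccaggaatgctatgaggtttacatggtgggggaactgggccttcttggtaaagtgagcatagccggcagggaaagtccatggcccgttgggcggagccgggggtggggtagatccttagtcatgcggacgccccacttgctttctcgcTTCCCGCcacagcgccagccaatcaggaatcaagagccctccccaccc
Uhrf1, chr17:56304063-56304312, plus strand, with the AhR core: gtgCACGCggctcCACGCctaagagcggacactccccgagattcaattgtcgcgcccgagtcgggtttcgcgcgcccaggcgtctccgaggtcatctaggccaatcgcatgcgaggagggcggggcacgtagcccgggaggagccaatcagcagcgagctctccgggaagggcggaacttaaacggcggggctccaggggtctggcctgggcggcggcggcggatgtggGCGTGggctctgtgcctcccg
Tdg, chr10:82629588-82629837, plus strand, with the AhR core: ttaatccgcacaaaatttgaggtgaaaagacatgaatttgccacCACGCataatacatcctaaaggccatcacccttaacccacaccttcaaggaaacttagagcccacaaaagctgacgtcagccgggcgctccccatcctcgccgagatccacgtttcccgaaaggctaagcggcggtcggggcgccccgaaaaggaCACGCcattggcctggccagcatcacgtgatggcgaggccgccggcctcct
The cores began 247, 237 and 21 bases before the second Uhrf1 start site and 206 and 51 bases before that of Tdg, and TTCCCGC began 48 bases before the first Uhrf1 start site. The remaining core began 76 bases before 1 of the 3 Dnmt1 start sites. CpG sites, the substrate of these enzymes, were frequent in most of the windows: 12 of the 13 held more than the median of 6 over all promoters, from 2 in 1 Dnmt1 window to 51 in that of Tet2. A match describes the letters, not binding, and the arrays measured no binding.

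The deposited values were array intensities on a linear scale. With no detection calls, a background mark was set on each array at the level that 95% of 1108 probe sets for olfactory receptors, genes not expected in marrow, stayed at or under. It lay between 33.8 and 42.8. Of 25335 probe sets tested, 3643 exceeded the mark on all 7 arrays and 8590 on none. WT replicate 2 stood apart: 30.7% of its probe sets exceeded the mark, against 34.0 to 44.9% on the other 6 arrays, and its mean correlation with the others was the lowest, at 0.625. The Ahr probe set itself gave 34.1, 137 and 26.4 in the Ahr-KO group and 31.3, 57.9, 14.9 and 20.5 in the WT group; which part of the gene it covers is not stated, so it checks no label. Of 10 measured HSC markers, 5 exceeded the mark on all 7 arrays and none was below it everywhere. Kit, the stem cell factor receptor, stood between 653 and 1258, while Slamf1, the CD150 antigen of the SLAM sort, gave 57.4, 78.03 and 236 in the Ahr-KO group and 4.56, 23.3, 7.81 and 73.3 in the WT group. It exceeded the mark on 3 of 3 Ahr-KO arrays and 1 of 4 WT arrays, a log2 difference of 2.58 ± 0.97 (SE; limma unadjusted p = 0.0288, adjusted p = 0.963). The list as a whole went the other way: 3 of the 10 HSC markers had higher and 7 lower mean log2 values in Ahr-KO, with a median difference of -0.65. Granulocyte and monocyte markers had mean log2 levels of 7.66 to 9.15 in Ahr-KO and 4.86 to 9.51 in WT, and 11 of 12 exceeded the mark on at least 1 array. All 12 had higher mean log2 values in Ahr-KO, with a median difference of 1.07, and none passed after adjustment. In WT the level was 4.86 on replicate 1, against 9.51, 7.87 and 6.98 on replicates 2 to 4. All Ahr-KO levels lay within the range of WT replicates 2 to 4. The difference without WT replicate 1 was not computed. Lymphoid markers were dimmer: 4 of 7 for B cells and 4 of 8 for T and NK cells exceeded the mark on no array. All 7 B cell markers had lower mean log2 values in Ahr-KO, with a median difference of -0.19, and 5 of 8 T and NK cell markers had higher ones. In bulk samples, fewer cells of a type and less RNA per cell cannot be told apart.

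Signal from the 8 genes came and went between arrays of 1 genotype. None exceeded the background mark on all 7 arrays. Ahr-KO replicate 2 had 8 of the 8 genes above the mark and WT replicate 4 had 7, while WT replicate 2 had 2 and Ahr-KO replicate 1 had 3. Ahr-KO replicate 3 had 5, and WT replicates 1 and 3 had 4 each. The arrays with the most members above the mark also had the largest shares of all probe sets above it, 41.9% on Ahr-KO replicate 2 and 44.9% on WT replicate 4. Counted together, 16 of 24 member values exceeded the mark in Ahr-KO and 17 of 32 in WT, or 66.7% and 53.1%, where 37.7% and 36.5% of all tested values did so.

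**Figure D1:**
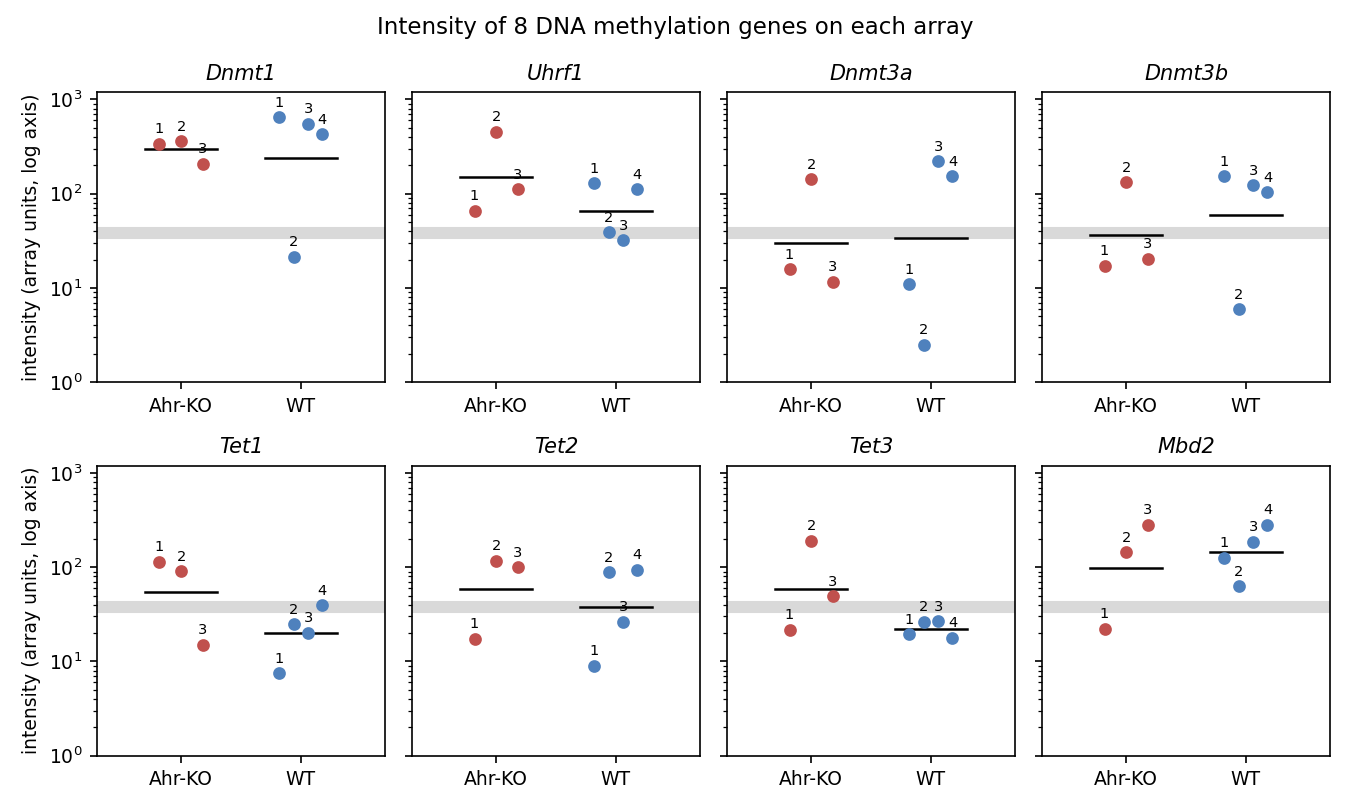
Intensity of the 8 genes (log axis) on the Ahr-KO arrays (red) and WT arrays (blue), with replicate numbers beside the points, the back-transformed mean of log2(intensity + 1) as a black line, and the range of the background mark over arrays (33.8 to 42.8) in grey. Dnmt1 lay above the mark on every array except WT replicate 2, and in every panel the genotypes overlap.

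No member passed the test of genotype, limma's moderated test on log2(intensity + 1) with p adjusted by Benjamini-Hochberg over all 25335 probe sets. The same held for the array as a whole. At an adjusted p under 0.05, 0 probe sets (0%) were called, the lowest adjusted p being 0.961, and 1067 (4.21%) had an unadjusted p under 0.05. None of the 8 members was among the latter, and the lowest unadjusted p of a member was 0.0967. Ahr-KO and WT values overlapped for all 8 members, where 1454 of all probe sets (5.74%) did not overlap. Of the 8 members, 5 had higher mean log2 values in Ahr-KO and 3 had lower, with a median difference of 0.46 against -0.03 over all probe sets.

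Dnmt1, the maintenance methyltransferase, gave 339, 362 and 209 on Ahr-KO replicates 1 to 3 and 647, 21.5, 552 and 431 on WT replicates 1 to 4. The Ahr-KO values were close together, and the WT group held both the highest values and, on replicate 2, the lowest. The log2 difference was 0.28 ± 1.16 (SE), with a 95% interval of -2.41 to 2.98 and a limma adjusted p of 0.988. Without WT replicate 2 the direction turned. The difference was then -0.86 ± 0.48 (SE), with a limma unadjusted p of 0.12 and an adjusted p of 0.94. In that comparison every Ahr-KO value of Dnmt1 lay below every WT value, as did those of 6.22% of all probe sets. WT replicate 2 also had the lowest mean log2 level of HSC markers (6.48) and of proliferation markers (6.76) and the highest of granulocyte and monocyte markers (9.51) among the 7 arrays. The part of those cells in the Dnmt1 value was not tested.

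Uhrf1, which recognises hemimethylated DNA behind the replication fork and recruits Dnmt1, gave 66.1, 454 and 112 in the Ahr-KO group and 129, 39.2, 32.2 and 112 in the WT group. Ahr-KO replicate 2 was high, all 3 Ahr-KO values exceeded the background mark, and 2 of 4 WT values did. The log2 difference of 1.18 ± 0.83 (SE; 95% interval -0.73 to 3.09; limma adjusted p = 0.963) was 0.39 without Ahr-KO replicate 2. On that array proliferation markers had their highest mean log2 level, 8.04, against 6.76 to 8.00 on the other 6. The mean of the 4 measured erythroid markers was also highest there, at 7.36, against 3.56 to 5.66 on the other 6. The part of either list in the Uhrf1 value was not tested. Over the 7 arrays, which share array-wide differences in signal, Uhrf1 and Dnmt1 had a Pearson correlation of 0.35, and of -0.22 without WT replicate 2.

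Dnmt3a, a de novo methyltransferase, split into arrays with and without signal in both genotypes. It gave 15.8, 142 and 11.6 in the Ahr-KO group and 11.0, 2.51, 220 and 153 in the WT group, so that 1 Ahr-KO array and 2 WT arrays exceeded the mark and the other 4 did not. Ahr-KO and WT differed by -0.15 ± 1.60 log2 units (SE; 95% interval -3.84 to 3.55; limma adjusted p = 0.996), the widest interval of the 8 genes. It ran from -1.25 to 0.75 as single arrays were left out, negative when the array left out was Ahr-KO replicate 2 or WT replicates 1 or 2, and positive for the other 4.

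Dnmt3b, the second de novo enzyme, gave 17.2, 133 and 20.4 in the Ahr-KO group and 153, 5.91, 124 and 103 in the WT group. Signal stood above the mark on 1 of 3 Ahr-KO arrays and 3 of 4 WT arrays. On the log2 scale Dnmt3b differed by -0.71 ± 1.23 (SE; 95% interval -3.55 to 2.14; limma adjusted p = 0.970). Leaving out WT replicate 2 gave -1.75 ± 0.83 (SE), with a limma unadjusted p of 0.0741 and an adjusted p of 0.94, and leaving out Ahr-KO replicate 2 gave -1.63. Without Ahr-KO replicate 1 the difference was -0.19.

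The 3 methyltransferase genes varied together over the 7 arrays, and less closely without WT replicate 2. Pearson correlations of log2 values over the 7 arrays were 0.84 for Dnmt3b with Dnmt1, 0.76 for Dnmt3a with Dnmt3b and 0.66 for Dnmt3a with Dnmt1, where the median of all 28 pairs was 0.28 and the highest 0.84. Without WT replicate 2, on which all 3 were at their lowest, these correlations were 0.78, 0.58 and 0.30. Centring each array on its median left them at 0.82, 0.73 and 0.62. Other pairs were as close: Uhrf1 with Tet3 had 0.71 over the 7 arrays and 0.74 without WT replicate 2. Tet2 with Tet3 had 0.54 and 0.60. Dnmt3b had a correlation of 0.92 with the mean log2 level of the proliferation markers, and Dnmt3a of 0.89 with that of the HSC markers. They were the highest of all members with all marker lists. Dnmt3b also had 0.73 with erythroid and 0.71 with HSC markers, and Dnmt3a 0.63 with erythroid markers. Both genes and the proliferation and HSC lists were lowest on WT replicate 2, and values without it were not computed. These correlations are descriptions over 7 points that share array-wide signal.

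**Figure D2:**
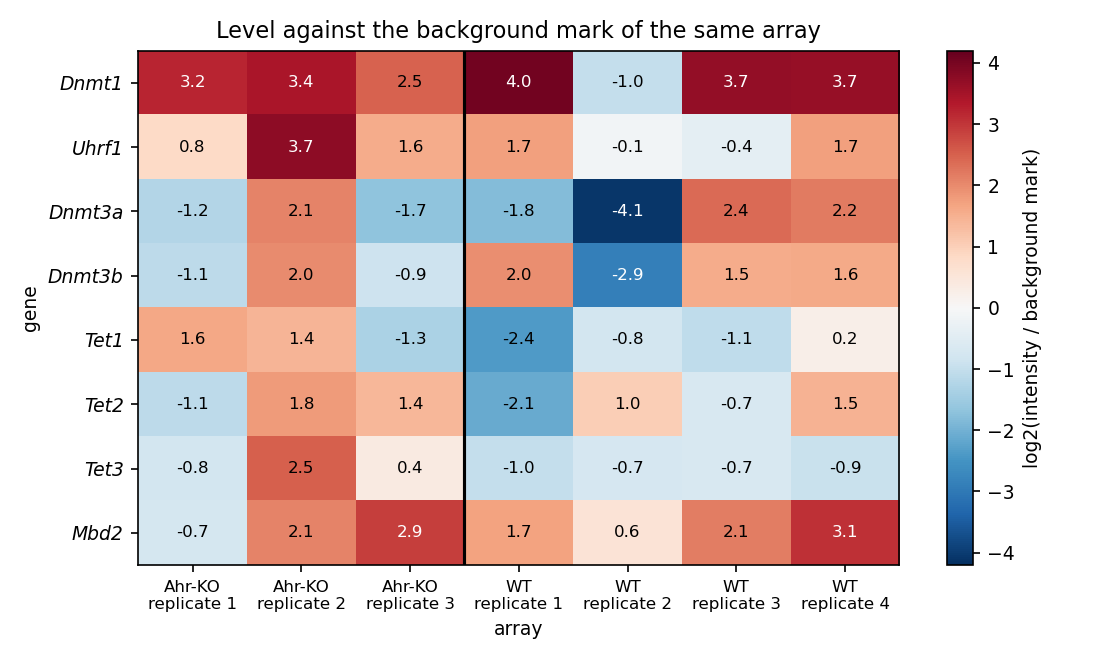
Log2 ratio of each gene's intensity to the background mark of the same array, with red above the mark and blue below it, Ahr-KO arrays left of the black line and WT arrays right of it. On WT replicate 2 every gene except Mbd2 and Tet2 lies below the mark, Uhrf1 only just, and on Ahr-KO replicate 2 every gene lies above it.

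Tet1, which begins demethylation by oxidising methylated cytosine, gave 114, 90.03 and 15.0 in the Ahr-KO group and 7.47, 24.9, 20.2 and 39.8 in the WT group. Ahr-KO replicates 1 and 2 lay above every WT value and replicate 3 lay among the low WT values. Tet1 differed by 1.40 ± 0.84 on the log2 scale (SE; 95% interval -0.55 to 3.35; limma adjusted p = 0.963). Without Ahr-KO replicate 3 it was 2.29 ± 0.72 (SE), with a limma unadjusted p of 0.0162 and an adjusted p of 0.974, and without Ahr-KO replicate 1 it was 0.87.

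Tet2, the dioxygenase gene often mutated in myeloid disease, gave 17.4, 117 and 100.03 in the Ahr-KO group and 9.02, 88.5, 26.3 and 93.9 in the WT group. Each genotype had 2 arrays near 100 and the rest below the mark. The log2 difference of 0.63 ± 1.01 (SE; 95% interval -1.70 to 2.96; limma adjusted p = 0.968) ran from -0.03 without WT replicate 1 to 1.49 without Ahr-KO replicate 1. It was 0.14 without Ahr-KO replicate 2 and 0.26 without Ahr-KO replicate 3.

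Tet3 was the steadiest member in WT. Its values were 21.8, 191 and 49.1 in the Ahr-KO group and 19.6, 26.5, 26.7 and 17.8 in the WT group, in which no array exceeded the mark. Ahr-KO replicates 2 and 3 lay above the mark and above every WT value. The log2 SD was 0.29 in WT and 1.56 in Ahr-KO. Between genotypes it differed by 1.37 ± 0.73 log2 units (SE; 95% interval -0.31 to 3.05; limma unadjusted p = 0.0967, adjusted p = 0.963). It was 0.54 without Ahr-KO replicate 2 and 2.07 ± 0.67 (SE) without Ahr-KO replicate 1, where the limma unadjusted p was 0.0178 and the adjusted p 0.996.

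The Tet genes thus had higher mean log2 values in Ahr-KO, each with an interval that includes 0. In Ahr-KO all 3 exceeded the mark on replicate 2, Tet2 and Tet3 also on replicate 3 and Tet1 on replicate 1. Over the 7 arrays their correlations with the mean log2 level of granulocyte and monocyte markers were 0.60 for Tet1, 0.65 for Tet2 and 0.50 for Tet3. That level was also higher in Ahr-KO on average. It was lowest on WT replicate 1, at 4.86, where Tet1 and Tet2 were lowest too. Tet3 had a correlation of 0.85 with the mean of the T and NK cell markers, of which 4 of 8 exceeded the mark on no array. Both were highest on Ahr-KO replicate 2, where Nkg7 gave 770 and Klrd1 180, its single value above the mark. The rest of the list was not bright on that array. Cd3e gave 79.3, and Cd3d, Cd3g, Cd2, Cd8a and Gzma gave 7.39, 26.6, 21.5, 16.4 and 18.4, below the mark. The part of any such cells in the Tet values was not tested. The pairwise correlations over the 7 arrays were 0.54 for Tet2 with Tet3, 0.37 for Tet1 with Tet3 and 0.28 for Tet1 with Tet2. The WT values of Tet1 and Tet3 lay below the mark except for Tet1 on WT replicate 4, and with a pseudocount of 16 the differences of both were smaller, at 1.01 and 1.06. Tet2 and Dnmt1 had a correlation of -0.46, and the lowest of the 28 member pairs was -0.48, for Tet1 with Mbd2.

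Mbd2, which tethers the NuRD repressor complex to methylated DNA, exceeded the background mark on 6 of 7 arrays, as Dnmt1 did. It gave 22.2, 144 and 282 in the Ahr-KO group and 126, 63.1, 186 and 283 in the WT group, with Ahr-KO replicate 1 the lowest. Its difference was -0.56 ± 0.92 log2 units (SE; 95% interval -2.69 to 1.58; limma adjusted p = 0.968), and it turned to 0.49 without Ahr-KO replicate 1.

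Tdg, the glycosylase that removes oxidised methylcytosine, could not be read alone. The row shared with Tdg-ps gave 12.0, 28.4 and 38.1 in the Ahr-KO group and 16.3, 56.9, 20.6 and 34.0 in the WT group. It differed by -0.26 ± 0.62 log2 units (SE; limma adjusted p = 0.978). The row shared with Tdg-ps2 gave 40.6, 48.9 and 19.04 in the Ahr-KO group and 218, 30.4, 86.1 and 41.04 in the WT group. It differed by -1.03 ± 0.76 log2 units (SE; limma adjusted p = 0.963), or -0.49 without WT replicate 1. The first row was highest on WT replicate 2 and the second on WT replicate 1, and neither row tells the gene from its pseudogene copy.

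**Figure D3:**
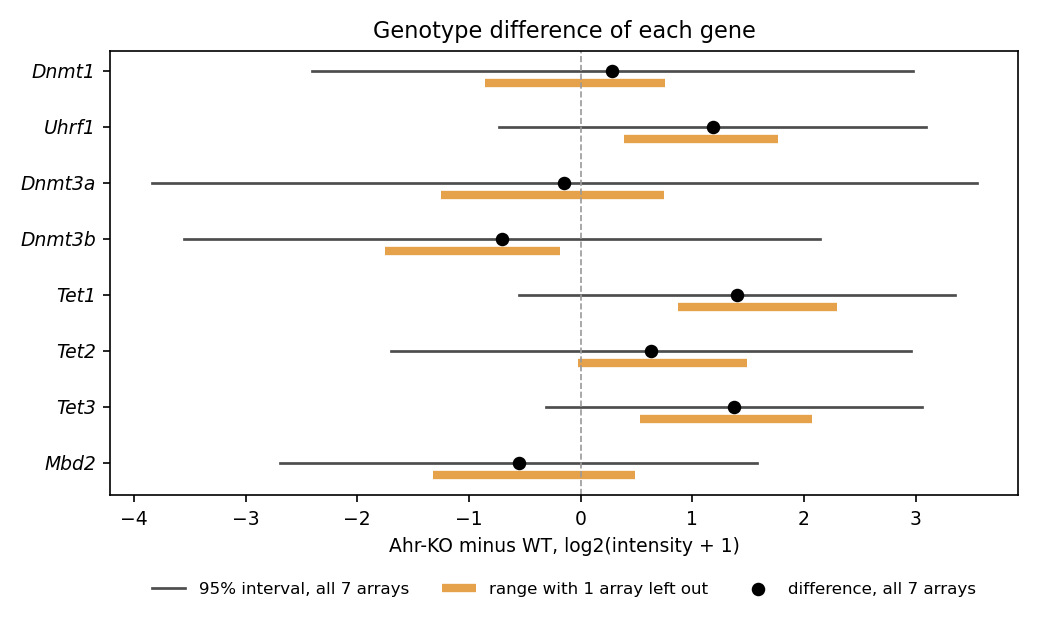
Ahr-KO minus WT difference of each gene on the log2(intensity + 1) scale (black point), its 95% interval from limma on all 7 arrays (line), and the range of the difference when 1 array is left out (orange). Every interval includes 0, and the orange ranges of Dnmt1, Dnmt3a, Tet2 and Mbd2 cross 0.

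Genes working beside the members were read from 7 lists of 66 genes, of which 58 had a row of their own, each gene by its probe set of highest mean. None passed an adjusted p of 0.05. At an unadjusted p under 0.05 there were 2 higher and 1 lower in Ahr-KO, together 5.17% of the 58. Over all probe sets 1.99% were higher and 2.22% lower at that p. Without regard to p, 30 of the 58 had higher and 28 lower mean log2 values. The median difference of each of the 7 lists changed sign when 1 array or another was left out, so no direction of a list below is stable.

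Among 7 measured maintenance partners, 5 had higher and 2 lower mean log2 values, with a median difference of 0.40, or -0.29 without Ahr-KO replicate 2. Cdca7, which activates the remodeller Hells that opens chromatin for maintenance methylation, gave 657, 134 and 561 in the Ahr-KO group and 174, 5.35, 13.4 and 120.1 in the WT group. Ahr-KO replicates 1 and 3 lay above every WT value, while Ahr-KO replicate 2 lay among them. The log2 difference was 3.31 ± 1.26 (SE; limma unadjusted p = 0.0311, adjusted p = 0.963). It ran from 2.45 without WT replicate 2 to 4.05 without WT replicate 1, and unadjusted p-values then reached 0.0963. Ehmt2, a histone H3 methyltransferase gene, differed by -2.43 ± 1.12 (SE), or -0.92 without Ahr-KO replicate 3, on which it gave 2.32.

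Mean log2 values of the 8 partners of de novo methylation split evenly, 4 on the higher and 4 on the lower side in Ahr-KO, with a median difference of -0.09, which was 0.10 without WT replicate 4. Setd2, which writes the histone mark that Dnmt3a and Dnmt3b read in gene bodies, gave 22.9, 602 and 68.4 in the Ahr-KO group and 371, 233, 182 and 263 in the WT group. The Ahr-KO values lay on both sides of the WT range, and the difference was -1.35 ± 1.01 log2 units (SE; limma adjusted p = 0.963), -0.32 without Ahr-KO replicate 1 and -2.65 without Ahr-KO replicate 2. Dnmt3l, the inactive cofactor of the de novo enzymes in germ cells, was below the mark on all 7 arrays.

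Other methyl-CpG readers, with 8 measured, divided into 4 and 4 around a median of 0.05, or -0.38 without Ahr-KO replicate 3 and 0.78 without Ahr-KO replicate 1. Mbd4, a reader that is also a thymine glycosylase, gave 7.16, 5.42 and 31.03 in the Ahr-KO group and 36.8, 31.2, 71.5 and 30.7 in the WT group. Its values exceeded the mark on 1 WT array alone. Mbd4 differed by -1.78 ± 0.67 on the log2 scale (SE; limma unadjusted p = 0.0299, adjusted p = 0.963), and from -2.50 to -1.34 with 1 array left out, where the unadjusted p ran from 0.00351 to 0.113. Mbd6 differed by 0.81 ± 0.68 (SE), or 0.28 without Ahr-KO replicate 3.

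The NuRD complex that Mbd2 recruits was measured by 11 subunits, of which 5 were higher and 6 lower in Ahr-KO around a median difference of -0.20 (0.21 without Ahr-KO replicate 3), and 7 of the 11 exceeded the mark on all 7 arrays. Rbbp7, a histone-binding subunit, gave 457, 567 and 395 in the Ahr-KO group and 91.8, 211, 267 and 278 in the WT group. Every Ahr-KO value lay above every WT value, which held for 2.61% of all probe sets. The log2 difference was 1.26 ± 0.53 (SE; limma unadjusted p = 0.0463, adjusted p = 0.963). It was 0.90 without WT replicate 1, and when single arrays were left out the unadjusted p ran from 0.0458 to 0.124. Gatad2a, a scaffold subunit, differed by 1.31 ± 0.71 (SE).

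Base excision repair genes that act with or after Tdg had 9 members measured, of which 4 were higher and 5 lower in Ahr-KO around a median difference of -0.23. Leaving out WT replicate 2 gave a median of -0.63, and leaving out Ahr-KO replicate 1 gave 0.27. The uracil glycosylase gene Ung gave 68.3, 48.3 and 35.8 in the Ahr-KO group and 5.56, 4.86, 0.55 and 74.0 in the WT group. Its difference was 2.62 ± 1.18 log2 units (SE; limma adjusted p = 0.963). WT replicate 4 was the highest of all 7 arrays and the other WT arrays were the lowest, and without it the difference was 3.68. Smug1, another uracil glycosylase gene, differed by -1.36 ± 0.81 (SE), or -0.46 without Ahr-KO replicate 3.

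Of 8 measured TET cofactor and regulator genes, 2 had higher and 6 lower mean log2 values, with a median of -0.30. It was -1.08 without Ahr-KO replicate 2, 0.30 without Ahr-KO replicate 1 and 0.23 without Ahr-KO replicate 3. Ogt, the O-GlcNAc transferase that binds Tet proteins, gave 182, 261 and 417 in the Ahr-KO group and 266, 676, 777 and 883 in the WT group. The groups overlapped through WT replicate 1 and Ahr-KO replicate 3, and the difference came to -1.13 ± 0.58 log2 units (SE; limma adjusted p = 0.963). Dcaf1, a ubiquitin ligase adaptor, differed by -0.83 ± 0.67 (SE), or -0.43 without WT replicate 3.

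Of 7 measured genes that supply the methyl donor, 6 had higher and 1 lower mean log2 values, with a median of 0.48. It was -0.17 without WT replicate 2, 0.10 without Ahr-KO replicate 1 and 1.01 without WT replicate 4. Shmt2, which feeds mitochondrial folate metabolism, gave 934, 363 and 831 in the Ahr-KO group and 477, 8.17, 34.1 and 657 in the WT group. It differed by 2.71 ± 1.49 log2 units (SE; limma adjusted p = 0.963), or 1.56 without WT replicate 2. Mean log2 levels of the whole list were 6.13 to 6.95 in Ahr-KO and 4.02 to 7.06 in WT, lowest on WT replicate 2. Mtrr, which reactivates methionine synthase, differed by -1.21 ± 0.76 (SE), or -0.61 without WT replicate 3, the single array on which it exceeded the mark.

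**Figure D4:**
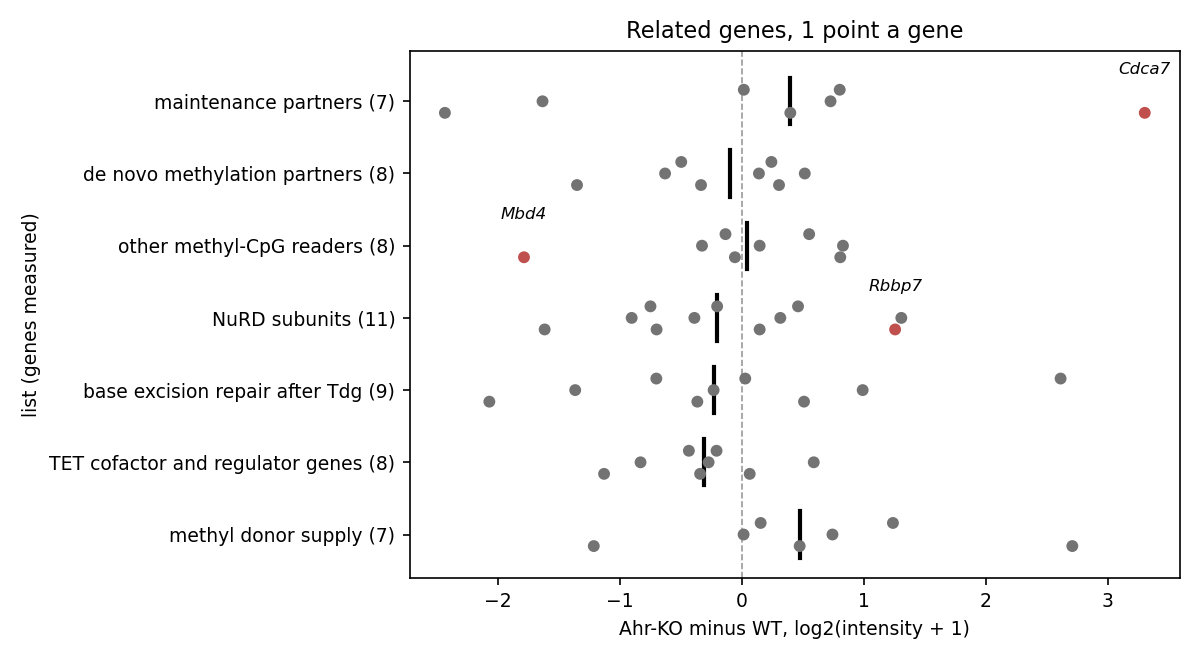
Ahr-KO minus WT difference on the log2(intensity + 1) scale of the 58 related genes by list, 1 point a gene, with the list median as a black bar. Red points mark the 3 genes with an unadjusted limma p under 0.05 (Cdca7, Mbd4 and Rbbp7), none of which passed after adjustment.

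Patterns like those of the members were sought among the 3243 probe sets with 1 gene symbol that exceeded the background mark on all arrays, for the 5 members above it on at least 4. By Pearson correlation of log2 values over the 7 arrays, Dnmt1 was most like Atp6v1g1 (0.99) and Tmem234 (0.98), and Dnmt3b most like Snx21 (0.99) and Znrf1 (0.97). Uhrf1 was most like Cox5b (0.95) and Mpdu1 (0.94), Mbd2 most like Plppr3 (0.95) and Alas1 (0.95), and Tet2 most like Klhl24 (0.95) and Ggn (0.93). Correlations above 0.9 were reached by 32 of these probe sets for Dnmt1 and by 6 for Tet2. They are the highest of 3243 over 7 arrays and describe these arrays alone.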

How the data were processed

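Biotin-labelled cDNA from 7 HSC samples was hybridised to single-channel Affymetrix arrays. The authors deposited linear intensities, 1 for each probe set on each array. The submitters' processing notes name Affymetrix Expression Console. How probes were summarized, corrected for background and normalized, and on which genome build, the sources used here do not state. Intensities were transformed as log2(intensity + 1), and the comparison, Ahr-KO minus WT, was fitted in R 4.3.3 by lmFit and eBayes of limma 3.58.1, with genotype as the only term. The 25335 of 41155 rows that the platform annotation pairs with a gene symbol were tested (23521 with 1 symbol, 1814 with several), and two-sided p-values received a Benjamini-Hochberg adjustment over them, with a threshold of 0.05. Standard errors and intervals are moderated. The added 1 makes differences of dim probe sets smaller than the log2 ratio of their intensities. Values far below the background mark can still give large differences, and a pseudocount of 16 made those of Tet1 and Tet3 smaller. No depth applies to arrays; their number limits the precision.

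The members, lists and background mark were chosen with earlier results of these data known. Of each list, the 2 genes with the smallest unadjusted p were named; for members above the mark on at least 4 arrays, the 2 most similar genes were named. Alternatives were quantile normalization, median centring, a pseudocount of 16, the replicate number as a block, array weights, a trended and robust prior, a filter on dim probe sets, all rows of the table and leaving out each array. Background marks at the 90th and 99th percentiles were added after the data were seen. The fit was tested on simulated data.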

Additional observations from a re-analysis of the deposited data

Results flagged for a closer look

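In the WT group of 4 arrays, 2 of the 8 genes had 1 array far from the others by Dixon's test on log2 values. Chance passes this test in about 5% of groups, but the share among all probe sets was not counted. Dnmt1 stood at 21.5 on WT replicate 2, with a gap of 0.879 of the group's range. Dnmt3b stood at 5.91 on the same array, with a gap of 0.875. That array stood apart over all probe sets, and the 2 genes had a correlation of 0.84, so these are not separate events. The Ahr-KO group of 3 arrays was not tested in this way.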

How the results depend on the processing

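Under every alternative, leave-one-out included, 0 probe sets passed an adjusted p of 0.05 by limma, and no member did; the lowest adjusted p of a member was 0.931. Unadjusted p under 0.05 was met by 1067 probe sets, by 954 to 1339 with 1 array left out, by 495 with the filter on dim probe sets and by 1781 with all rows, where fewer or more rows were tested. Of 119 values of members under the alternatives, 110 kept their sign. The replicate block turned Dnmt3a to 0.57, its value without WT replicate 4, which is alone in its block and so drops out of the difference. Array weights turned Dnmt1 to -0.090; the cause was not tested. With single arrays left out, the log2 difference ran from -0.86 to 0.76 for Dnmt1, -1.25 to 0.75 for Dnmt3a, -1.32 to 0.49 for Mbd2, -0.026 to 1.49 for Tet2 and -0.59 to 0.20 for the row of Tdg and Tdg-ps, each crossing 0, and kept its sign for Uhrf1, Dnmt3b, Tet1, Tet3 and the row of Tdg-ps2 and Tdg. List medians ran from -0.29 to 0.82 for maintenance partners, -0.38 to 0.78 for other readers, -0.31 to 0.21 for NuRD subunits, -0.25 to 0.10 for de novo partners, -0.63 to 0.27 for base excision repair, -1.08 to 0.30 for TET cofactors and -0.17 to 1.01 for methyl donor supply, each crossing 0. Tet3, above the mark on 2 arrays, did not pass the filter. The deviations of same-numbered arrays had correlations of 0.02, -0.06 and 0.01, and those of arrays with unlike numbers ran from -0.08 to 0.12. With so few arrays, such values cannot show whether same-numbered arrays were processed together. The replicate block gave 1120 probe sets at an unadjusted p under 0.05 and 0 adjusted. With the mark at the 90th and 99th percentiles, 35 and 27 of 56 member values exceeded it, against 33.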
